A study of Mus musculus with 4 samples.

Results

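The 7 genes Pax2, Tfap2b, Bcl11a, Zfhx3, Zfhx4, Neurod6 and Hmga2 encode proteins that bind DNA, and they were followed here through nuclei from the deep cerebellar nuclei of the mouse. They are 7 of the 15632 genes listed in the deposited tables, and they were chosen because their measured levels separated classes of inhibitory nuclei and because pairs of them shared or avoided nuclei. Their levels per class and their pairings are therefore given as a description, without a test. The study profiled nuclei from tissue microdissected out of vibratome slices of C57BL/6J mice, with no sorting recorded in the labels, and 20547 of 21494 deposited nuclei were kept. The Ucn3-Cre libraries (Tg[Ucn3-cre]KF31Gsat/Mmucd) were replicate 1, a female of 3 months prepared on an iodixanol gradient, and replicate 2, a male of 3 months prepared on a sucrose cushion. The vGluT2-Cre libraries (Tg(Slc17a6-icre)1Oki) were replicate 1, a male of 2 months, and replicate 2, a female of 2.5 months, both on a sucrose cushion. Cre is driven in these lines by transgenes with regulatory sequences of Ucn3, the gene of urocortin 3, and of Slc17a6, the gene of the vesicular glutamate transporter VGLUT2. All mice also carried Ai32, a reporter that makes channelrhodopsin fused to EYFP where Cre has acted. Age differed between the lines, so line and age cannot be told apart. The 2 libraries of a line differ in sex, so the spread behind the p-values is that between libraries of different animals, sexes and, for Ucn3-Cre, preparations.

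The deep cerebellar nuclei are the output station of the cerebellum. Their inhibitory neurons include cells that release GABA onto the inferior olive and local cells that release GABA and glycine, and they lie close to the interneurons of the cerebellar cortex. Cerebellar inhibitory neurons arise from progenitors that express Ptf1a; the paired-box factor Pax2 marks the precursors of interneurons in that lineage, and the AP-2 factor Tfap2b acts with its relative Tfap2a downstream of Ptf1a. Bcl11a is a zinc-finger repressor and a subunit of the BAF chromatin remodelling complex, known for silencing fetal globin genes. Zfhx3 and Zfhx4 are very large proteins that combine zinc fingers with homeodomains, and Zfhx3 is known from the suprachiasmatic nucleus. Neurod6 is a basic helix-loop-helix factor best known from pyramidal neurons of the forebrain, and Hmga2 is an AT-hook chromatin protein of embryonic and progenitor cells that is a target of let-7 microRNAs.

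In GENCODE vM21 on GRCm38, Pax2 (ENSMUSG00000004231) spans chr19:44756045-44837871 on the plus strand and Tfap2b (ENSMUSG00000025927) spans chr1:19208914-19238576 on the plus strand. Bcl11a (ENSMUSG00000000861) spans chr11:24078056-24174123, Zfhx3 (ENSMUSG00000038872) spans chr8:107942644-108961630 and Zfhx4 (ENSMUSG00000025255) spans chr3:5218526-5415857, all on the plus strand. Neurod6 (ENSMUSG00000037984) spans chr6:55677822-55681263 and Hmga2 (ENSMUSG00000056758) spans chr10:120361275-120476469, both on the minus strand. Genes on the opposite strand that are also in the tables overlap 4 members: Gm20395 overlaps Pax2, Gm12064 overlaps Bcl11a, Gm39244 and Lncbate1 overlap Zfhx3, and 2700069I18Rik overlaps Zfhx4. Whether counting used the strand is not given in the sources used here, so reads of such partners cannot be told apart.

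Promoters are printed for Pax2 and Tfap2b, which shared inhibitory nuclei, and for Bcl11a and Zfhx3, which shared others, so that members found together or apart can be set side by side. Each runs from 250 bases before to 50 bases after a RefSeq start on GRCm38.p6, 5′ to 3′ on the gene's strand. Capitals mark matches to GCCNNNGGC, the core bound by AP-2 factors such as Tfap2b, and to CAGCTG, an E-box of the kind bound by basic helix-loop-helix proteins. Pax2 lies at chr19:44755502-44755801, Tfap2b at chr1:19211804-19212103, Bcl11a at chr11:24080445-24080744 and Zfhx3 at chr8:108714394-108714693, all on the plus strand. For Pax2, which has 3 RefSeq entries, the start nearest to that of GENCODE was taken.
Pax2: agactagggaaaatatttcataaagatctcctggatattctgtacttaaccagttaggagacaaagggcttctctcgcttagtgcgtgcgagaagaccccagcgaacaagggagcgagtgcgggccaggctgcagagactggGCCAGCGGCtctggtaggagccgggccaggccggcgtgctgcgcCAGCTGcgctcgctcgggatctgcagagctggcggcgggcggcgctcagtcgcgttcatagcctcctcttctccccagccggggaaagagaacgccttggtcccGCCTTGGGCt
Tfap2b: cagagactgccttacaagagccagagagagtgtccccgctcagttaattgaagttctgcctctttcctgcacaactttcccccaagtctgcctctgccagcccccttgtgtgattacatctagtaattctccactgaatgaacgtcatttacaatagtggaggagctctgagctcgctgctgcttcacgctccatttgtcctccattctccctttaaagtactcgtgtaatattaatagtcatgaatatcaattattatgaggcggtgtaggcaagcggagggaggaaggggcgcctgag
Bcl11a: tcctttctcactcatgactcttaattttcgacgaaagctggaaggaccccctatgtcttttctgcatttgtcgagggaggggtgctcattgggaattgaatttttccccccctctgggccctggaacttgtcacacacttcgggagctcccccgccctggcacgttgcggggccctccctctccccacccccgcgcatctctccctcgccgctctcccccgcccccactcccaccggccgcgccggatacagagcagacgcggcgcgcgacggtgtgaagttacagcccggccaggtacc
Zfhx3: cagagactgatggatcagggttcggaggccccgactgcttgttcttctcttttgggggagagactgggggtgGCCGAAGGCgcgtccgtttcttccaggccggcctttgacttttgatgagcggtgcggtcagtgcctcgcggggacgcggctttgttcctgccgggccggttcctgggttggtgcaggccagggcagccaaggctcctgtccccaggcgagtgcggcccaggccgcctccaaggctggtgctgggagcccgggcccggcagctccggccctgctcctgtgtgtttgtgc
The Pax2 stretch held 2 matches to the AP-2 core and 1 to CAGCTG, the Zfhx3 stretch held 1 match to the AP-2 core, and those of Tfap2b and Bcl11a held neither. Neurod6 and Hmga2 had entries as well, without a match, and no entry of that table matched Zfhx4. Searched on both strands with N as any base, GCCNNNGGC was found in 16.6% of 32851 promoters of 27025 genes, CAGCTG in 16.3% and the further E-box CAGATG, absent from all 6 member stretches, in 17.2%. G and C made up 61.7% of the Pax2 stretch, 48.3% of that of Tfap2b, 63.0% of that of Bcl11a and 67.3% of that of Zfhx3, against a median of 52.7% over all promoters.

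The deposited libraries held 9096357 to 19125488 counts in 4291 to 6587 nuclei, and any pair of libraries shared 3 to 8 cell barcodes. Nuclei were clustered without the members and without the fixed gene lists, and classes were named from marker genes. Cluster 10, with 662 nuclei, is called inhibitory neuron-like here and is led by Meg3, Snhg11, Cntnap2 and Cntn5. Cluster 13, with 472 nuclei, had all 5 inhibitory markers detected but also carried Nxph1, a marker of molecular layer interneurons, among its 10 leading genes, so it keeps its number. Its summed markers of molecular layer interneurons were at 6253 CPM (counts per 1000000 counts of a class and library), against 2860 CPM in cluster 10. A further 249 nuclei in cluster 14 were molecular layer interneuron-like, with all 9 markers of that list detected and Cntn4, Meg3, Nrxn3, Dab1 and Rora leading. These 3 are the inhibitory classes in what follows. Nuclei with at least 2 counts of Gad1 and Gad2 together, the genes of GABA synthesis, are called Gad nuclei; there were 1204 of them, 138 and 324 from Ucn3-Cre mice and 460 and 282 from vGluT2-Cre mice. They made up 82.2% of cluster 10, 82.2% of cluster 13, 49.4% of the molecular layer interneuron-like class and 7.44% of the glutamatergic-like class, which is cluster 12. Replicate 1 is given before replicate 2 throughout.

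Across classes, 6 of the 7 members had their highest mean level in an inhibitory class, against 3167 of 15612 genes (20.3%) over the tables, and the exception was Zfhx3. That count was 5 without vGluT2-Cre replicate 1, where Zfhx4 was highest in fibroblast-like nuclei. The members were chosen for such levels, so nothing is read from the count. Levels are CPM of counts summed per class and library, and they are set side by side between classes of 1 gene, not between genes.

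**Figure D1:**
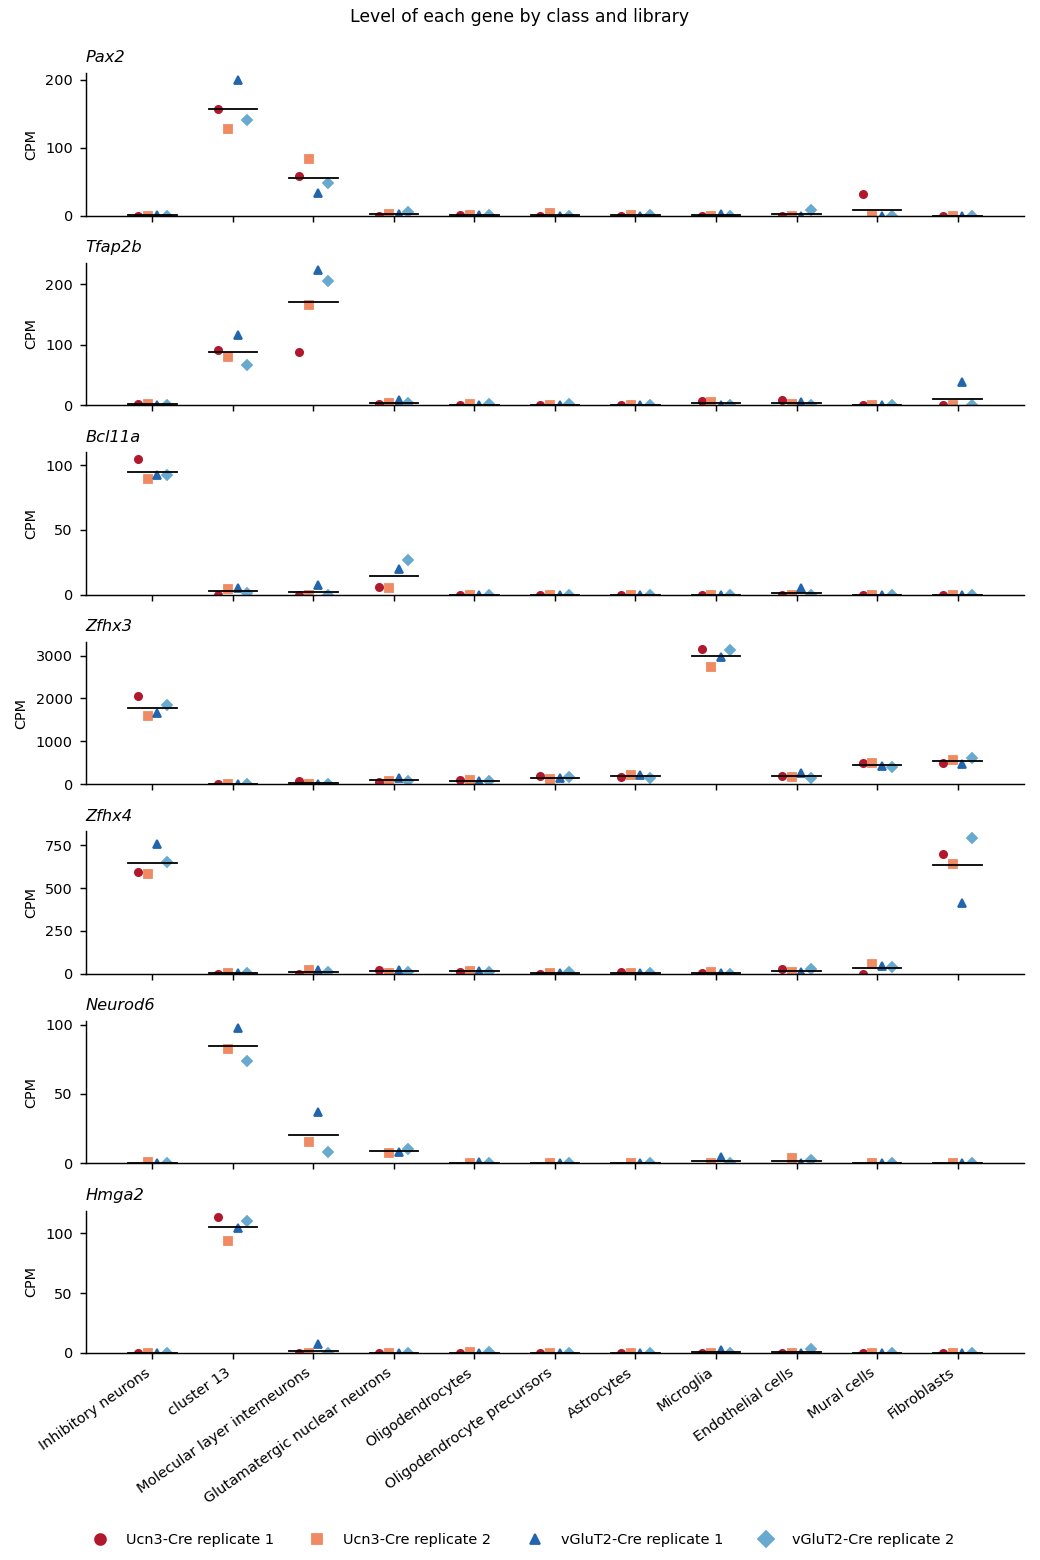
Level of each of the 7 genes in CPM (vertical axes) in 11 classes of nuclei (horizontal axis), with 1 marker per library and a bar at the mean over libraries; "Inhibitory neurons" is cluster 10. Pax2, Neurod6 and Hmga2 peak in cluster 13, Tfap2b in molecular layer interneuron-like nuclei, Bcl11a and Zfhx4 in cluster 10, and Zfhx3 in microglia-like nuclei, at 2994 CPM against 1787 CPM in cluster 10.

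Pax2 was highest in cluster 13, at 157 and 128 CPM in the Ucn3-Cre libraries and 199.5 and 140.4 CPM in the vGluT2-Cre libraries (156 ± 31.3, SD, n = 4). Molecular layer interneuron-like nuclei followed at 58.8 and 83.1 CPM in the Ucn3-Cre libraries and 33.2 and 47.4 CPM in the vGluT2-Cre libraries (55.6 ± 21.1). The ranges of these classes did not overlap, and cluster 10 held 1 Pax2 count in 1 library and none in the others. Among nuclei, 45.7 to 55.8% of cluster 13 and 7.45 to 14.9% of the molecular layer interneuron-like class had a Pax2 count, per library. In oligodendrocyte-like nuclei, which should lack the gene, the share was 0.0897 to 0.188%, with median depths of 1612 to 2988 counts per library there and 4216.5 to 8657 counts in cluster 13.

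Tfap2b reached 88.2 and 166 CPM in the Ucn3-Cre libraries and 225 and 205 CPM in the vGluT2-Cre libraries in molecular layer interneuron-like nuclei (171 ± 60.4, SD, n = 4). In cluster 13 it was at 91.1 and 79.6 CPM in the Ucn3-Cre libraries and at 116 and 66.4 CPM in the vGluT2-Cre libraries (88.2 ± 21.02). The ranges overlapped because of Ucn3-Cre replicate 1, the only library in which the molecular layer interneuron-like level was the lower one. Cluster 10 held 2.23 and 2.18 CPM in the Ucn3-Cre libraries and none in the vGluT2-Cre libraries, so Tfap2b, like Pax2, marked the inhibitory nuclei outside cluster 10.

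Bcl11a showed the opposite placement. It was at 105 and 89.3 CPM in the Ucn3-Cre libraries and 92.2 and 92.2 CPM in the vGluT2-Cre libraries in cluster 10 (94.6 ± 6.90, SD, n = 4). The glutamatergic-like class followed at 6.17 and 5.46 CPM in the Ucn3-Cre libraries and 20.1 and 26.9 CPM in the vGluT2-Cre libraries (14.7 ± 10.6). Every cluster 10 library lay above every glutamatergic-like one, and within the glutamatergic-like class both vGluT2-Cre libraries lay above both Ucn3-Cre libraries. Cluster 13 held at most 4.97 CPM of Bcl11a and the molecular layer interneuron-like class had counts in 1 library. A Bcl11a count was found in 31.1 to 47.0% of cluster 10 nuclei per library, and oligodendrocyte-like nuclei had none.

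Zfhx3 was not a gene of inhibitory nuclei alone. Microglia-like nuclei had the most, at 3159 and 2730.3 CPM in the Ucn3-Cre libraries and 2954 and 3135 CPM in the vGluT2-Cre libraries (2994 ± 198, SD, n = 4). Cluster 10 came next at 2055 and 1585 CPM in the Ucn3-Cre libraries and 1669 and 1840 CPM in the vGluT2-Cre libraries (1787 ± 207), and fibroblast-like nuclei averaged 536 ± 62.6 CPM. These 3 ranges did not overlap. Among inhibitory nuclei the split was wide: cluster 13 had 10.2 to 16.6 CPM in any library, and the molecular layer interneuron-like class had 73.5 and 15.6 CPM in the Ucn3-Cre libraries and none in the vGluT2-Cre libraries. Oligodendrocyte-like nuclei, at 76.7 to 92.3 CPM, were above cluster 13 in every library. A Zfhx3 count was present in 97.2 to 100% of cluster 10 nuclei per library, whose median depths were 4009.5 to 8024.5 counts.

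Zfhx4 was at 595 and 585 CPM in the Ucn3-Cre libraries and 757 and 651 CPM in the vGluT2-Cre libraries in cluster 10 (647 ± 79.1, SD, n = 4). Fibroblast-like nuclei, of which there were only 78, had 699 and 643 CPM in the Ucn3-Cre libraries and 411 and 790.4 CPM in the vGluT2-Cre libraries (636 ± 162). These ranges overlapped, so the order of the 2 classes is not resolved. Cluster 13 held 0 to 6.62 CPM and oligodendrocyte-like nuclei 8.41 to 17.6 CPM.

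Neurod6 was listed at 0 in every nucleus of Ucn3-Cre replicate 1, and in each library 206 to 504 genes were listed at 0 although the other libraries would put them at 20 counts or more. The ribosomal gene Rps29, used by every cell, was also listed at 0 in Ucn3-Cre replicate 1, so Neurod6 is given for the other 3 libraries. In cluster 13 it was at 82.6 CPM in Ucn3-Cre replicate 2 and 97.7 and 74.0 CPM in the vGluT2-Cre libraries (84.8 ± 11.97, SD, n = 3). Molecular layer interneuron-like nuclei held 15.6 CPM in Ucn3-Cre replicate 2 and 36.8 and 7.90 CPM in the vGluT2-Cre libraries, below every cluster 13 value, and the glutamatergic-like class held 7.28 CPM in Ucn3-Cre replicate 2 and 8.46 and 10.5 CPM in the vGluT2-Cre libraries. Cluster 10 had 1 count.

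Hmga2, known from embryonic cells, was read in these adult nuclei as well. In cluster 13 it was at 113 and 93.1 CPM in the Ucn3-Cre libraries and 104 and 109.8 CPM in the vGluT2-Cre libraries (105 ± 8.78, SD, n = 4). Cluster 10 had no count in any library, where 3 counts would have been 2.19 to 6.69 CPM, and the molecular layer interneuron-like class had counts in vGluT2-Cre replicate 1 alone. A Hmga2 count was found in 31.3 to 43.0% of cluster 13 nuclei per library, at median depths of 4216.5 to 8657 counts, and in at most 0.1997% of nuclei outside the Gad threshold.

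Gad nuclei as a whole were set against all other nuclei. Pax2 was at 61.0 and 53.2 CPM in Ucn3-Cre and 87.2 and 56.4 CPM in vGluT2-Cre Gad nuclei, against 0.653 to 2.66 CPM in the other nuclei of the same libraries. Hmga2 was at 40.2 and 39.7 CPM in Ucn3-Cre and 44.2 and 37.9 CPM in vGluT2-Cre Gad nuclei, against 0.415 to 1.41 CPM in other nuclei. All 7 members lay higher in Gad nuclei than in other nuclei in every library with a value. The gap was smallest for Zfhx3, at 785 to 952 CPM in Gad nuclei against 190.1 to 238 CPM in other nuclei. Shares of Gad nuclei with a count ran from 9.57 to 17.2% for Neurod6 to 49.4 to 55.1% for Zfhx3, with median depths of 4328 to 7674.5 counts, against 21.5 to 26.9% for Zfhx3 in other nuclei at median depths of 1804 to 3250 counts. For Pax2 the share was 15.9 to 21.1% in Gad nuclei and 0.178 to 0.558% in other nuclei.

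The table of 480 nuclei that the submitters named vglut2, 470 of which fell in the glutamatergic-like class, gave a view of the members outside inhibitory nuclei. Hmga2 was at 0 in all 480 nuclei. Zfhx3 was at 35.9 and 79.8 CPM in its Ucn3-Cre nuclei and 147.5 and 107 CPM in its vGluT2-Cre nuclei, and Bcl11a at 5.31 and 5.61 CPM in its Ucn3-Cre nuclei and 22.3 and 27.9 CPM in its vGluT2-Cre nuclei. For both genes the vGluT2-Cre nuclei lay above the Ucn3-Cre nuclei. The lines lay the same way for Zfhx4, at 6.64 and 7.48 CPM in Ucn3-Cre and 19.5 and 14.3 CPM in vGluT2-Cre nuclei. So they did for Pax2 (0 and 3.74 CPM, against 3.90 and 5.73 CPM) and Neurod6 (6.86 CPM, against 8.91 and 10.7 CPM). Slc17a6 was at 169 and 196 CPM, against 249 and 259 CPM, and for Tfap2b the lines overlapped. Median depths were 9599 and 16012 counts in vGluT2-Cre nuclei, against 7363 and 10263 counts in Ucn3-Cre nuclei. Of these 480 nuclei 33 also met the Gad threshold, and 9 nuclei of the table had been marked as doublets. Bcl11a was detected in 11 of the 33 (33.3%) and in 33 of the other 447 (7.38%), Zfhx4 in 10 (30.3%) and 32 (7.16%), and Pax2 in 4 (12.1%) and 7 (1.57%). Neurod6, over the 3 libraries with a value, did not follow this order, with 2 of 30 Gad nuclei (6.67%) and 38 of the other 362 (10.5%).

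Gad nuclei were then clustered on their own, again without the members, and each nucleus was thinned to 2000 UMIs (unique molecular identifiers, counted as molecules), which kept 1155 nuclei and left out 4 to 29 shallower ones per library. Sub-clusters 0 and 2, with 389 and 140 Gad nuclei, belonged to cluster 10 and were led by genes such as Cntn5 and Foxp2. Sub-clusters 1 and 4, with 204 and 117 nuclei, were almost wholly cluster 13; sub-cluster 1 had 7 of 9 markers of molecular layer interneurons detected and was led by Rgs6, Kit, Mgat4c and Nxph1, and sub-cluster 4 had Slc6a5 among its leading genes. Of the others, sub-cluster 3 with 122 nuclei held 120 nuclei of the molecular layer interneuron-like class. Its own markers left it unnamed, with the best score for unipolar brush cells, 2 of 5 of their markers detected. Its leading genes held Sorcs3, a listed marker of molecular layer interneurons, and Sgcd, one of unipolar brush cells. Sub-cluster 5 with 97 nuclei mixed 59 nuclei of cluster 13 with 36 of the glutamatergic-like class. The remaining sub-clusters, 6 to 9, held 135 nuclei led by glial, vascular or mixed genes.

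Within that grouping the members took different sub-clusters, as the plot of shares by sub-cluster shows. Zfhx3 was found in 94.3% of thinned nuclei of sub-cluster 0 (mean over libraries, 91.9 to 97.7%) and 95.4% of sub-cluster 2, against 2.27% of sub-cluster 1. Zfhx4 was found in 69.1% of sub-cluster 0 and 73.7% of sub-cluster 2 and in none of sub-cluster 1, and Bcl11a in 14.3 and 19.7% of sub-clusters 0 and 2 and none of sub-clusters 1, 3 and 4. Pax2 divided the other way and was highest in sub-cluster 4, at 36.2% (27.9 to 57.1%), against 20.3% (17.0 to 22.7%) in sub-cluster 1 and none in sub-clusters 0 and 2. Tfap2b was highest in sub-cluster 3, at 35.7% (26.9 to 45.5%), against 9.92% in sub-cluster 1 and 12.7% in sub-cluster 4. Hmga2 was detected at near-equal shares in sub-clusters 1 and 4, 19.6% (13.8 to 25.0%) and 21.4% (7.14 to 32.6%), whereas Neurod6 was at 19.9% (18.8 to 21.8%) in sub-cluster 1 and 9.74% in sub-cluster 4. The wide ranges of sub-cluster 4 overlapped those of sub-cluster 1 for Hmga2 and did not for Pax2.

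**Figure D2:**
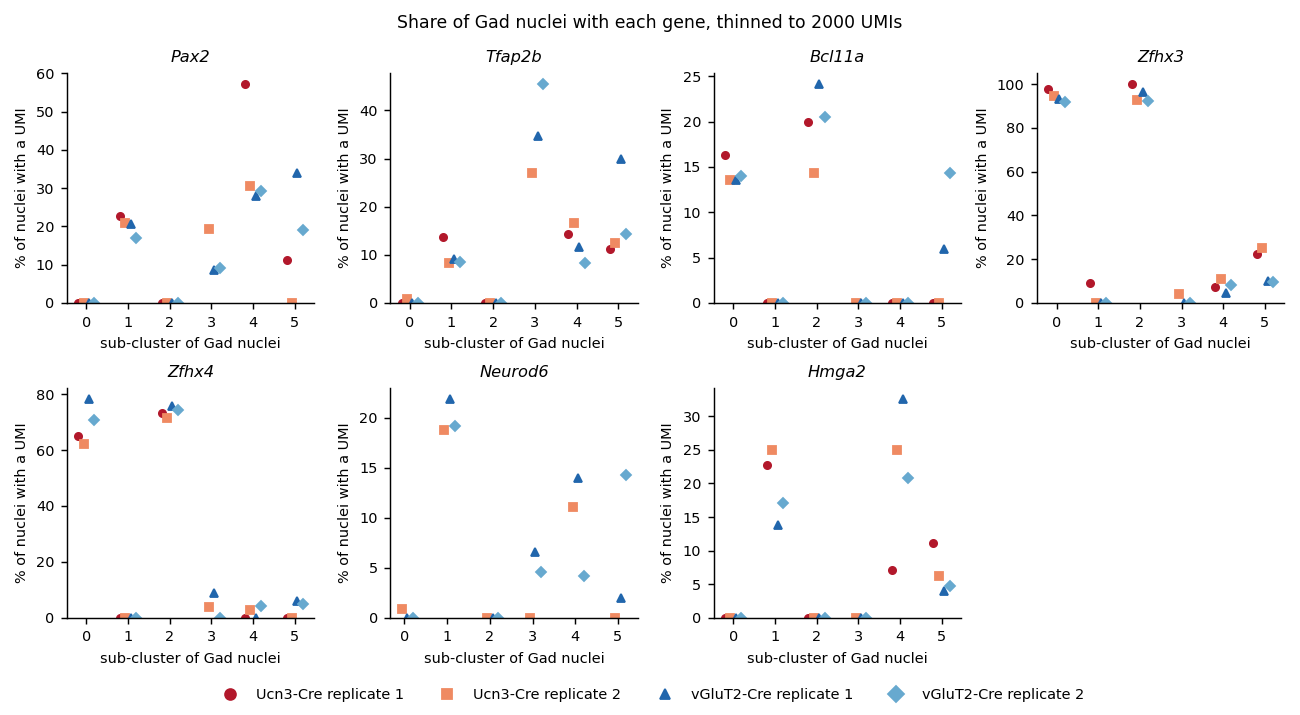
Percent of Gad nuclei thinned to 2000 UMIs with at least 1 UMI of each gene (vertical axes) in sub-clusters 0 to 5 (horizontal axis), 1 marker per library. Zfhx3, Zfhx4 and Bcl11a are high in sub-clusters 0 and 2, where Pax2 and Hmga2 are at 0, and Tfap2b is highest in sub-cluster 3.

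The 7 members form 21 pairs. For each library a log2 odds ratio was computed over thinned Gad nuclei (0.5 added to each cell of the table of both, either and neither), and a pair was called shared if it was above 0 in every library, or excluding if below 0 in every library, where at least 5 joint nuclei were expected. By that rule 6 pairs were shared, 11 were excluding, 1 was mixed and 3 had too few expected nuclei. Over all 32514460 pairs of genes found in at least 2% of these nuclei, 9.44% were above 0 and 5.31% below 0 in every library. The pairs were part of how the members were chosen, so these counts are a description.

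**Figure D3:**
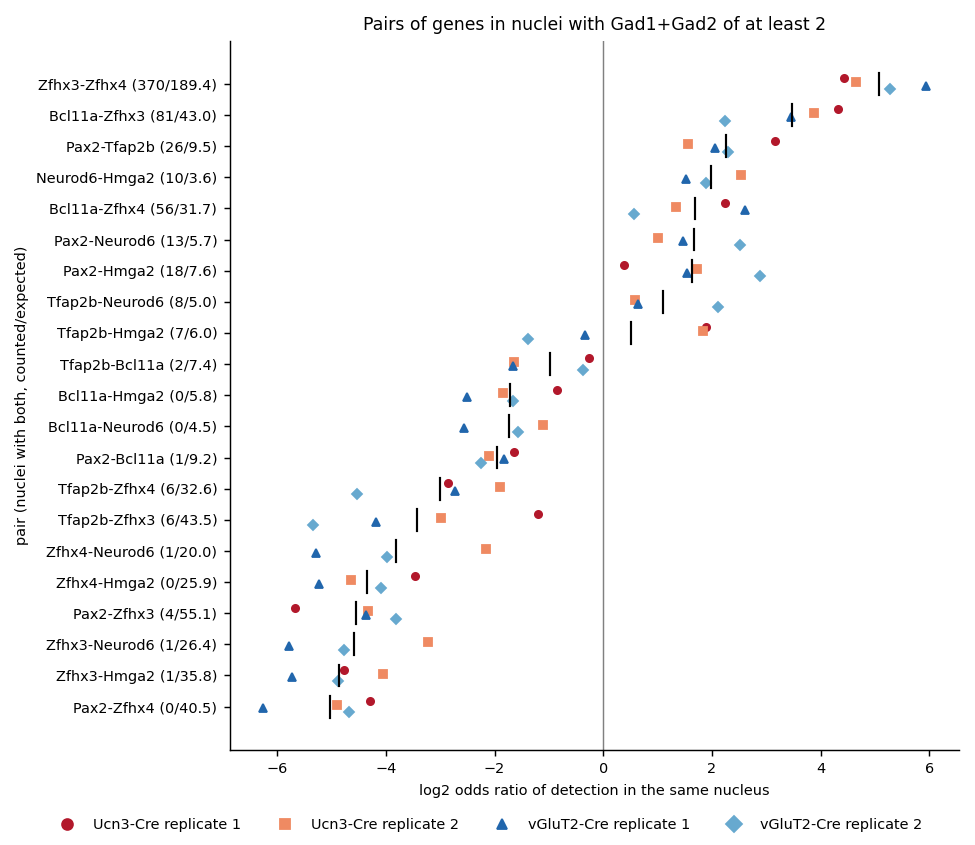
Log2 odds ratio of joint detection in thinned Gad nuclei (horizontal axis) for each pair of genes (rows), with 1 marker per library, a black tick at the mean, and the joint nuclei found and expected in the row label. Zfhx3 with Zfhx4 lies farthest to the right, at a mean of 5.07, and Pax2 with Zfhx4 farthest to the left, at −5.03.

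Zfhx3 and Zfhx4 shared the most nuclei, with 41 and 86 in Ucn3-Cre mice and 157 and 86 in vGluT2-Cre mice, 370 in all against 189 expected from their shares. The log2 odds ratio was 4.43 and 4.64 in Ucn3-Cre mice and 5.94 and 5.28 in vGluT2-Cre mice (5.07 ± 0.68, SD, n = 4). Bcl11a was found with Zfhx3 in 81 nuclei against 43.0 expected (3.47 ± 0.90), that is, in 81 of the 91 nuclei with Bcl11a, and with Zfhx4 in 56 nuclei against 31.7 expected (1.69 ± 0.92). On the other side, Pax2 was found with Tfap2b in 26 nuclei against 9.51 expected (2.26 ± 0.67), with 3.16 and 1.55 in Ucn3-Cre mice and 2.05 and 2.29 in vGluT2-Cre mice. Pax2 also shared 18 nuclei with Hmga2 against 7.55 expected (1.63 ± 1.03) and 13 nuclei with Neurod6 against 5.72 expected (1.67 ± 0.77, n = 3). The lowest Pax2-Hmga2 value, 0.37 in Ucn3-Cre replicate 1, rested on 1 joint nucleus.

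The strongest exclusions crossed between these sides. Pax2 and Zfhx4 were never found in 1 nucleus, against 40.5 nuclei expected (−5.03 ± 0.86, SD, n = 4), and 0 of 1155 nuclei allows a share of up to 0.260% by counting error. Pax2 and Zfhx3 met in 0 and 1 nuclei of the Ucn3-Cre libraries and 2 and 1 nuclei of the vGluT2-Cre libraries, 4 against 55.1 expected (−4.55 ± 0.79). Hmga2 met Zfhx3 in 1 nucleus against 35.8 expected and Zfhx4 in none against 25.9 expected. Neurod6 met Zfhx3 in 1 nucleus against 26.4 expected (−4.59 ± 1.29, n = 3). Tfap2b was the least strict, with 6 nuclei shared with Zfhx3 against 43.5 expected (−3.43 ± 1.77) and 6 with Zfhx4 against 32.6 expected. Tfap2b with Hmga2 was the mixed pair, with 7 nuclei against 5.96 expected, values of 1.89 and 1.84 in Ucn3-Cre mice and −0.34 and −1.38 in vGluT2-Cre mice.

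The members were grouped from the pairs, with Pax2, Tfap2b, Neurod6 and Hmga2 on 1 side and Bcl11a, Zfhx3 and Zfhx4 on the other. Inside the first set only the pairs with Pax2 were called shared. Tfap2b with Hmga2 was mixed, and Neurod6 with Tfap2b and with Hmga2 had too few expected nuclei, as had Neurod6 with Bcl11a. A gene of the first set without the second was found in 250 of 1155 nuclei (21.6%), a gene of the second without the first in 568 (49.2%), neither in 320 (27.7%) and both in 17 (1.47%), against 135 expected. Neurod6 could add nothing in Ucn3-Cre replicate 1, where it is listed at 0; over the other 3 libraries the counts were 227, 496, 288 and 15 of 1026 nuclei, against 121 expected. The 17 nuclei numbered 2 and 6 in Ucn3-Cre mice and 7 and 2 in vGluT2-Cre mice, and they were spread over 7 sub-clusters, 5 of them in the mixed sub-cluster 5. The grouping was made from these same pairs, so the small joint count repeats them.

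Expected joint numbers were also computed within sub-clusters, which asks whether pairs still share or avoid nuclei inside 1 sub-cluster. There the log2 odds ratio was pooled over the sub-clusters of a library (Mantel-Haenszel), with 0.5 added to its numerator and denominator. Its size is not to be set against that over all Gad nuclei. A sub-cluster need not hold 1 kind of nucleus. Sub-cluster 5, mixed as above, held 22 of the thinned nuclei with Pax2 and 13 of those with Zfhx3. The part of such mixing in the pairs was not tested. Within sub-clusters only 2 pairs were shared and 2 excluding, 8 were mixed and 9 had too few expected nuclei. Zfhx3 and Zfhx4 still shared, at a log2 odds ratio of 1.06 ± 0.82 (SD, n = 4) with 369 nuclei against 359 expected, and Bcl11a with Zfhx3 stood at 0.34 ± 0.22 with 81 against 79.2. Pax2 and Zfhx3 were below 0 in every library, at −0.86 ± 0.90 with 4 against 7.14 expected. Ucn3-Cre replicate 1 was at −2.20, with 0 nuclei against 1.80 expected. Ucn3-Cre replicate 2 was at −0.46, with 1 against 1.41. The vGluT2-Cre libraries were at −0.41 and −0.37, with 2 against 2.59 and 1 against 1.33, so this exclusion rests on few nuclei. Zfhx3 and Hmga2 were also below 0 in every library, at −1.41 ± 0.59 with 1 against 5.07. Pax2 and Tfap2b were at 0.75 ± 0.53 with 26 against 18.7, but Ucn3-Cre replicate 2, at −0.01, made the pair mixed. For these 5 pairs the numbers expected within sub-clusters lay nearer to the numbers found than those expected over all Gad nuclei. Without vGluT2-Cre replicate 1, the library with the most Gad nuclei, 3 pairs were shared and 8 excluding in Gad nuclei as a whole. None was mixed there, and 10 had too few expected nuclei, against 3 with all libraries.

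The glycine transporter gene followed the same division. Slc6a5, which encodes GlyT2 of glycinergic neurons, shared nuclei with Pax2 (34 against 11.5 expected; log2 odds ratio 2.54 ± 1.32, SD, n = 4), Tfap2b (22 against 9.38), Hmga2 (21 against 7.40) and Neurod6 (13 against 5.80). It excluded Zfhx4 (1 against 39.9; −4.57 ± 1.30), Zfhx3 (9 against 54.3) and Bcl11a (2 against 9.12).

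Thinned counts were next summed per library over Gad nuclei with a count of a member and over those without, and every other gene was compared with edgeR's quasi-likelihood test with the library as a block and Benjamini-Hochberg adjustment over the genes tested. Nuclei of 1 library share their source, so n is the number of libraries. Only Zfhx3 and Zfhx4 had 20 nuclei in every library; the other members, with at least 5, were added. Markers of other cells differed along with the splits. The summed level of the 7 oligodendrocyte markers was 431 to 773 CPM per library in nuclei with Zfhx3, against 833 to 3067 CPM in those without, and 150.0 to 542 CPM with Bcl11a, against 708 to 2150 CPM without. With Neurod6 it was 276 to 607 CPM, against 706 to 2085 CPM without, and for the other 4 members the ranges overlapped, at 385 to 1150.0 CPM with the gene and 660.1 to 2759 CPM without. Of these markers 6 of 7 tested were called lower with Zfhx3, 6 of 7 with Zfhx4, 2 of 3 with Bcl11a, 3 of 7 with Pax2, 4 of 7 with Neurod6, 2 of 5 with Hmga2 and 0 of 7 with Tfap2b. The 9 markers of molecular layer interneurons summed to 2750.0 to 3259 CPM with Zfhx3, against 5263 to 6395 CPM without, and to 6893 to 8155 CPM with Neurod6, against 3958 to 4758 CPM without. They were also lower with Zfhx4 (2715 to 3320 CPM, against 4676 to 5961 CPM) and Bcl11a (2750.0 to 3803 CPM, against 4185 to 5083 CPM). With Pax2 they were higher (5400.0 to 6673 CPM, against 3899 to 4756 CPM). Their sum was also higher with Hmga2 (5435 to 6446 CPM, against 3925 to 4879 CPM), although 1 of the 9, Ptprk, had no count there. With Tfap2b the ranges overlapped (4800.0 to 6500.0 CPM, against 3955 to 4850 CPM). Endothelial markers were at 7.81 to 155 CPM with Zfhx3, against 121 to 413 CPM without, and astrocyte markers at 48.8 to 387 CPM, against 181 to 914 CPM. All 6 endothelial markers were at 0 with Neurod6, against 76.7 to 239 CPM without. With Tfap2b, unipolar brush cell markers were at 1250 to 1915 CPM, against 671 to 796 CPM without. Glycinergic or Golgi markers were at 650 to 900 CPM with it, against 394 to 498 CPM. With Pax2, unipolar brush cell markers were at 841 to 1577 CPM, against 675 to 825 CPM. Purkinje cell markers were at 66.7 to 205 CPM with Pax2, against 342 to 458 CPM. Unipolar brush cell markers were lower with Zfhx3 (479 to 648 CPM, against 828 to 1248 CPM), Zfhx4 and Bcl11a. The part of these markers in the results was not tested.

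Nuclei with Zfhx3, 548 in all, differed from the other Gad nuclei in 1410 of 6350 genes tested (22.2%), with 698 higher (11%) and 712 lower (11.2%). Oprk1, the kappa opioid receptor, rose with the largest fold change, at 114 ± 30.5 CPM in nuclei with Zfhx3 and 4.87 ± 5.62 CPM in those without (SD, n = 4; log2 fold change 4.48 with an SE of 0.40; adjusted p = 2.99e-10). The calcium pump Atp2b4 rose to 256 ± 34.4 CPM with Zfhx3, against 9.54 ± 9.21 CPM without, and the adhesion genes Cntnap3 and Cntnap5c and the homeobox gene Dmbx1 rose by 4.25, 3.95 and 3.97 on the log2 scale. Without vGluT2-Cre replicate 1 these fold changes were 3.78 for Oprk1, 5.15 for Atp2b4 and 3.35 for Cntnap3, all still called. Among falls, the receptor tyrosine kinase gene Kit was at 31.5 ± 32.2 CPM with Zfhx3 and 471 ± 73.7 CPM without (log2 fold change −4.30, adjusted p = 5.30e-15). Gldc, the glycine decarboxylase, was at 3.66 ± 5.01 CPM with Zfhx3 and 89.7 ± 10.1 CPM without, with a log2 fold change of −4.49, or −3.80 without vGluT2-Cre replicate 1 and −5.83 without Ucn3-Cre replicate 2. Fgf5 had no count with Zfhx3 and 43.2 ± 7.61 CPM without, at least 16.9-fold lower when 3 counts are allowed over the group. Nts, the neurotensin gene, and Itga8 had 2 counts each with Zfhx3, which put the ratio of their levels at 0.0308 (95% interval 0.00366 to 0.115) and 0.0243 (0.00290 to 0.0905), counting error only.

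Nuclei with Zfhx4, 400 in all, differed in 1042 of 5663 genes (18.4%), 507 higher (8.95%) and 535 lower (9.45%). Slc6a5 had 1 count in them and 150 in the nuclei without, a ratio of 0.0126 (0.000316 to 0.0712). The receptor phosphatase gene Ptprt was at 15.4 ± 10.4 CPM with Zfhx4 and 483 ± 39.6 CPM without (SD, n = 4; log2 fold change −4.93 with an SE of 0.26; adjusted p = 1.13e-15 in edgeR's quasi-likelihood test). Prom1, the signalling gene Smad3 and Itga8 fell as well, with 2 counts each in nuclei with Zfhx4. Cntnap5c again rose, to 586 ± 103 CPM with Zfhx4 against 118 ± 24.3 CPM without (log2 fold change 2.37), as did the receptor gene Gpr139 (2.66), Gm49267 (2.49) and Gm46102 (2.39). The rise of 2700069I18Rik, 145 ± 28.6 CPM with Zfhx4 against 24.9 ± 9.47 CPM without, concerns a gene that overlaps Zfhx4 on the other strand.

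Nuclei with Bcl11a, 91 in all, differed in 309 of 3617 genes (8.54%), 141 higher (3.9%) and 168 lower (4.64%). Fbxl7 rose to 672 ± 146 CPM in nuclei with Bcl11a, against 295 ± 45.9 CPM without (SD, n = 4; log2 fold change 1.38 with an SE of 0.18; adjusted p = 4.98e-12 in edgeR's quasi-likelihood test). The guidance gene Slit1, Ramp3, Nagk and Gm49267 rose by 1.50, 1.59, 1.57 and 1.61 on the log2 scale. Of these, Ramp3 missed the threshold without vGluT2-Cre replicate 1 (adjusted p = 0.0690) and Gm49267 missed it without Ucn3-Cre replicate 1 (0.0800), vGluT2-Cre replicate 1 (0.0895) or vGluT2-Cre replicate 2 (0.0930), and Nagk missed it when counts were not thinned (0.621). Fbxl7 was at 0.38 with thinning to 1000 UMIs (0.743), and Slit1 at 0.92 in sub-clusters 0 to 5 alone (0.103) and at 0.92 without nuclei with Slc17a6 (0.0926). Ntn1, the guidance cue netrin, had no count with Bcl11a and 152 ± 11.7 CPM without, at least 8.32-fold lower. Gm26688 and Ddo also had no count, and Myo16 had 2 counts against 831, a ratio of 0.0281 (0.00340 to 0.102).

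Nuclei with Pax2, 116 in all, differed in 443 of 3946 genes (11.2%), 198 higher (5.02%) and 245 lower (6.21%). Without vGluT2-Cre replicate 1 they differed in 284 of 3357 genes. Slc6a5 rose to 203 ± 93.3 CPM in nuclei with Pax2, against 50.2 ± 18.3 CPM without (SD, n = 4; log2 fold change 1.95 with an SE of 0.31; adjusted p = 2.61e-08 in edgeR's quasi-likelihood test). Fam107b, the protease gene Adamts18, the adrenergic receptor gene Adra1b and Gm14342 rose by 1.93, 1.72, 1.68 and 1.64 on the log2 scale, and Adamts18 missed the threshold when nuclei with Slc17a6, the gene of VGLUT2, were left out (0.197). Slc24a4, a sodium-calcium exchanger, had no count with Pax2 and 161 ± 15.7 CPM without, at least 11.2-fold lower. Thsd7b, the potassium-channel partner Kcnip1 and the nuclear factor Tox had no count either and were at least 10.9-, 8.89- and 8.04-fold lower.

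Nuclei with Tfap2b, 93 in all, differed in 306 of 3977 genes (7.69%), 138 higher (3.47%) and 168 lower (4.22%). The count was 191 of 4073 without Ucn3-Cre replicate 2, 188 of 3603 without vGluT2-Cre replicate 1 and 136 of 4099 without vGluT2-Cre replicate 2. The metabotropic glutamate receptor gene Grm8 rose to 460.3 ± 248 CPM in nuclei with Tfap2b, against 75.1 ± 17.4 CPM without (SD, n = 4; log2 fold change 2.91 with an SE of 0.26; adjusted p = 1.50e-17 in edgeR's quasi-likelihood test). The adhesion gene Kirrel3 rose to 2403 ± 1267 CPM, against 578 ± 132 CPM without, and Socs2, the semaphorin gene Sema3e and Gldc rose by 2.24, 2.20 and 2.20 on the log2 scale. Cacna2d1, a calcium-channel subunit, had no count with Tfap2b and 331 ± 51.1 CPM without, at least 19.0-fold lower. Slc24a4 and Kcnip1, without a count in nuclei with Pax2, had none with Tfap2b as well.

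Nuclei with Hmga2, 75 in all, differed in 427 of 3391 genes (12.6%), 176 higher (5.19%) and 251 lower (7.4%). Hcrtr2, an orexin receptor, rose to 217 ± 94.2 CPM in nuclei with Hmga2, against 55.1 ± 14.1 CPM without (SD, n = 4; log2 fold change 2.19 with an SE of 0.34; adjusted p = 6.76e-09 in edgeR's quasi-likelihood test). The LIM-only factor Lmo4 rose to 308 ± 129 CPM, against 91.3 ± 22.7 CPM without, and Ankfn1, Gm14342 and Peli2 rose by 1.97, 1.93 and 1.91 on the log2 scale. Tenm3, an adhesion protein of the teneurin family, had no count with Hmga2 and 684 ± 147 CPM without, at least 31.8-fold lower. The phosphatase gene Ptprk, a listed marker of molecular layer interneurons, was at least 24.3-fold lower. Fbxl7 and Cntnap5c, which rose with Bcl11a and with the Zfhx genes, had no count with Hmga2.

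Nuclei with Neurod6, 57 in 3 libraries, differed in 321 of 6718 genes (4.78%), 96 higher (1.43%) and 225 lower (3.35%). This count moved most with the libraries, to 52 of 5975 genes without vGluT2-Cre replicate 1. Nts rose to 137 ± 85.3 CPM in nuclei with Neurod6, against 32.6 ± 15.3 CPM without (SD, n = 3; log2 fold change 2.306 with an SE of 0.47; adjusted p = 0.000157 in edgeR's quasi-likelihood test). It missed the threshold without Ucn3-Cre replicate 2 (adjusted p = 0.0598) or vGluT2-Cre replicate 1 (0.122), and Itga8, Phf21b and Tex9, which rose by 2.22, 2.40 and 2.14 on the log2 scale, each missed it without vGluT2-Cre replicate 1 (0.0696, 0.296 and 0.186). The autophagy gene Atg101 rose by 2.90. Ano3, a member of the anoctamin family, had no count with Neurod6 and 236 ± 22.2 CPM without, at least 8.02-fold lower, and neither Alcam, Ebf3, Atp2b4 nor Thsd7b had a count; Atp2b4 and Thsd7b missed the threshold without vGluT2-Cre replicate 1 (0.0745 and 0.0972). Nts and Itga8, which rose with Neurod6, were among the largest falls with Zfhx3.

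Of the 11 transmitter genes listed, 8 were in the tables. Slc6a5 rose with Pax2, as above, and with Tfap2b, to 175 ± 72.7 CPM against 63.3 ± 8.01 CPM without (SD, n = 4; log2 fold change 1.48, adjusted p = 0.00186 in edgeR's quasi-likelihood test, and 0.0534 without Ucn3-Cre replicate 2). It fell with Zfhx3, to 13.1 ± 8.73 CPM against 113 ± 10.7 CPM without (log2 fold change −3.19, and −3.88 without Ucn3-Cre replicate 2), with Zfhx4, and with Bcl11a, where 2 counts gave a ratio of 0.157 (0.0188 to 0.577; adjusted p = 0.00795, and 0.0642 without Ucn3-Cre replicate 2). With Neurod6 it was at 111 ± 48.1 CPM and without at 70.3 ± 4.28 CPM, a difference that missed the threshold (adjusted p = 0.431), and with Hmga2 it was not tested, as it did not pass the filter on low counts. Gad1 and Gad2, on which the nuclei were selected, and the vesicular transporter gene Slc32a1 passed the threshold with no member.

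A list of 89 transcription factors of cerebellar lineages, 73 of them in the tables, was read in the same splits. With Zfhx3, 13 of 31 tested rose and 11 fell, with a median log2 fold change of 0.02 against −0.01 over all genes tested. With Zfhx4, 10 of 28 rose and 12 fell (median −0.16 against 0.00), and with Bcl11a 4 of 17 rose and 5 fell (−0.15 against −0.03). With Pax2, 3 of 21 rose and 6 fell (−0.13 against −0.01), with Tfap2b 4 of 20 rose and 5 fell (−0.16 against −0.04), with Neurod6 2 of 30 rose and 6 fell (−0.42 against −0.11), and with Hmga2 2 of 17 rose and 7 fell (−0.59 against −0.02). The list thus held genes that moved in both directions with every member.

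**Figure D4:**
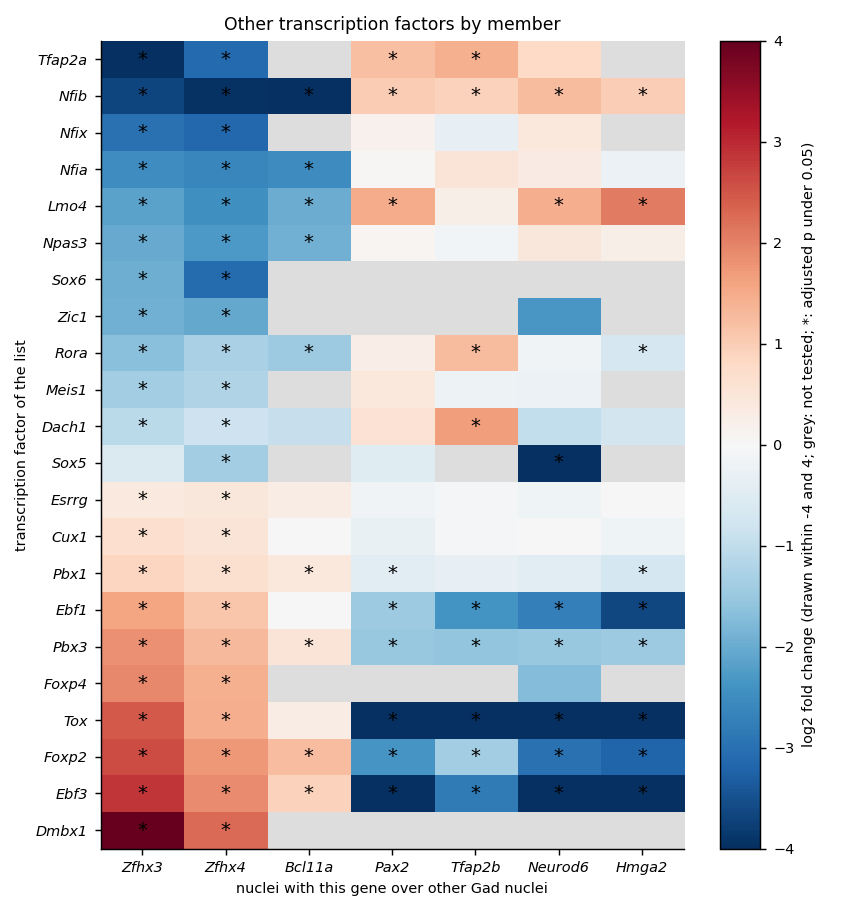
Fitted log2 fold change (colour, drawn within ±4) of 22 transcription factors (rows) in Gad nuclei with each of the 7 genes (columns) against those without it; grey marks pairs not tested and asterisks an adjusted p under 0.05. The columns of Zfhx3, Zfhx4 and Bcl11a and those of Pax2, Tfap2b, Neurod6 and Hmga2 have opposite colours for Nfib, Ebf3, Foxp2 and Pbx3.

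Nfib, Ebf3, Foxp2 and Pbx3 were the 4 listed factors called with all 7 members. The 7 splits use the same Gad nuclei, so their calls repeat one another in part. Sub-cluster 0 held 387 thinned nuclei, with Bcl11a found in 54, Zfhx4 in 273 and Zfhx3 in 363. Most of it thus lay in the group without Bcl11a, and fold changes are not to be ranked between members. Nfib, a nuclear factor I protein, rose to 804 ± 16.8 CPM with Pax2, against 439 ± 35.8 CPM without (SD, n = 4; log2 fold change 1.03), and also rose with Tfap2b (0.94), Neurod6 (1.28) and Hmga2 (0.98). It fell to 69.2 ± 25.2 CPM with Zfhx3, against 805 ± 112 CPM without (−3.66), and also fell with Zfhx4 (−3.96) and Bcl11a (−4.14). The other 3 ran the opposite way. Ebf3, of the early B-cell factor family, rose to 347 ± 55.3 CPM with Zfhx3, against 40.2 ± 20.3 CPM without (2.84), and rose with Zfhx4 (1.90) and Bcl11a (0.92). It fell with Tfap2b (−2.83, with 5 counts, none of them left without vGluT2-Cre replicate 1) and with Pax2, where 1 count gave a ratio of 0.0217 (0.000548 to 0.122), and had no count with Neurod6 or Hmga2. The forkhead gene Foxp2 rose by 2.62 with Zfhx3, 1.73 with Zfhx4 and 1.22 with Bcl11a on the log2 scale, and its log2 fold change was −2.36 with Pax2 and −1.40 with Tfap2b. The homeobox gene Pbx3 rose by 1.81 with Zfhx3, 1.29 with Zfhx4 and 0.53 with Bcl11a, and its log2 fold change was −1.52 with Pax2, −1.58 with Tfap2b, −1.53 with Neurod6 (−2.19 without vGluT2-Cre replicate 1) and −1.46 with Hmga2. Some of these calls were lost when a library was left out, by edgeR's quasi-likelihood test with Benjamini-Hochberg adjustment. With Neurod6 and without vGluT2-Cre replicate 1, Nfib was at 1.00 (adjusted p = 0.0603) and Foxp2 at −1.69 (0.381, against −2.98 with all 3 libraries). With Bcl11a, Ebf3 was at 0.82 without Ucn3-Cre replicate 1 (0.0508) and Foxp2 at 1.00 without vGluT2-Cre replicate 1 (0.0550). Pbx3 with Bcl11a was at 0.55, 0.57 and 0.35 without Ucn3-Cre replicate 2, vGluT2-Cre replicate 1 and vGluT2-Cre replicate 2 (0.0632, 0.110 and 0.479). Foxp2 with Tfap2b was at −1.39, −1.32 and −1.60 without the same libraries (0.0548, 0.269 and 0.0504). Other settings lost calls too. With thinning to 1000 UMIs, Nfib was at 0.39 with Tfap2b (0.818) and at 0.86 with Pax2 (0.0542). There Ebf3 was at 0.29 with Bcl11a (0.859), and Pbx3 at 0.37 with Bcl11a (0.579) and −1.44 with Tfap2b (0.0934). DESeq2 put Pbx3 with Bcl11a at 0.47 (adjusted p = 0.422) and Foxp2 with Tfap2b at −1.45 (0.130).

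Other listed factors marked smaller sets. Tfap2a, the relative of Tfap2b, rose to 125 ± 56.6 CPM with Tfap2b, against 53.2 ± 6.13 CPM without, and to 101 ± 31.6 CPM with Pax2, against 50.7 ± 8.80 CPM without (SD, n = 4). The rise with Tfap2b missed the threshold without Ucn3-Cre replicate 2 or vGluT2-Cre replicate 2 (adjusted p = 0.0589 and 0.170 in edgeR's test). The rise with Pax2 missed it without Ucn3-Cre replicate 1 or vGluT2-Cre replicate 1 (0.0674 and 0.326). Both missed it with no filter on low counts (0.0959 and 0.108) and in DESeq2 (0.0858 and 0.250). With called doublets kept, the rise with Pax2 missed it in edgeR's test (0.0695). Tfap2a fell to 6.09 ± 3.60 CPM with Zfhx3, against 95.8 ± 10.6 CPM without, and fell with Zfhx4 (log2 fold change −3.11). Lmo4 rose with Pax2 (1.48), Neurod6 (1.44) and Hmga2 (2.08) and fell with Bcl11a (−1.97), Zfhx3 (−2.14) and Zfhx4 (−2.44). The change of Lmo4 missed the threshold with Bcl11a without vGluT2-Cre replicate 1 (0.157), and with Neurod6 without Ucn3-Cre replicate 2 (0.0903) or vGluT2-Cre replicate 1 (0.288). Rora, a nuclear receptor abundant in the cerebellar cortex, rose with Tfap2b by 1.27, in 3 of 4 libraries. That rise missed the threshold without vGluT2-Cre replicate 2 (0.0982) and with thinning to 1000 UMIs (0.149, edgeR's test). Rora fell with Hmga2 (−0.67) as well as with Bcl11a (−1.45), Zfhx3 (−1.67) and Zfhx4 (−1.29). Dach1 rose with Tfap2b (1.68) and fell with Zfhx3 (−1.08) and Zfhx4 (−0.83). None of these 3 calls was made with thinning to 1000 UMIs (0.87, −0.63 and −0.43, with adjusted p of 0.551, 0.0974 and 0.468 in edgeR's test), and that with Zfhx4 was not made without vGluT2-Cre replicate 1 (−0.69, 0.116).

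Likeness of level was measured as the Pearson correlation of log2(CPM + 10) over 19 sums of sub-cluster and library with at least 20 nuclei, or 17 for Neurod6. These points share 4 libraries and 6 or fewer kinds of nuclei, so many genes score high, and the values only rank genes. The genes nearest to Bcl11a were Kcnip1 (0.984), Ebf3 (0.978), Thsd7b (0.975), Cemip (0.974) and Chrm3 (0.973). Those nearest to Zfhx4 were Oprk1 (0.980), Cntnap3 (0.979), 2700069I18Rik (0.976), Gm46102 (0.975) and Pdzd2 (0.973), and for Zfhx3 Dst (0.970) and Cdk14 (0.968) led. Pax2 was nearest to Etl4 (0.975), Sorcs1 (0.950) and Coro6 (0.948), and Hmga2 to Gm14342 (0.975), Adra1b (0.972) and the retinoic acid synthesis gene Aldh1a3 (0.965). Tfap2b was nearest to Spock1 (0.961) and Nav1 (0.947), and Neurod6 to Rasl12 (0.963) and Ppm1l (0.942).

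Line and sex took no part in the choice of the members, and levels in Gad nuclei were compared between them with edgeR's quasi-likelihood test over 11846 genes, with all 7 members passing the filter on low counts. Between Ucn3-Cre and vGluT2-Cre libraries 0 genes (0%) passed an adjusted p of 0.05, with 338 at an unadjusted p under 0.05 and 10 called by DESeq2. Between female and male libraries 1 gene (0.00844%) passed, Xist of the X chromosome (log2 fold change 14.97, adjusted p = 0.00829), with 384 at an unadjusted p under 0.05 and 26 called by DESeq2. Summed markers of other cells also differed between these Gad nuclei: endothelial markers were at 485 and 83.4 CPM in the Ucn3-Cre libraries and 35.4 and 225 CPM in the vGluT2-Cre libraries, and mural markers at 599 and 45.8 CPM in the Ucn3-Cre libraries and 46.3 and 89.8 CPM in the vGluT2-Cre libraries. Ucn3-Cre replicate 1, prepared on the gradient, was highest in both, and the part of these markers was not tested.

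**Figure D5:**
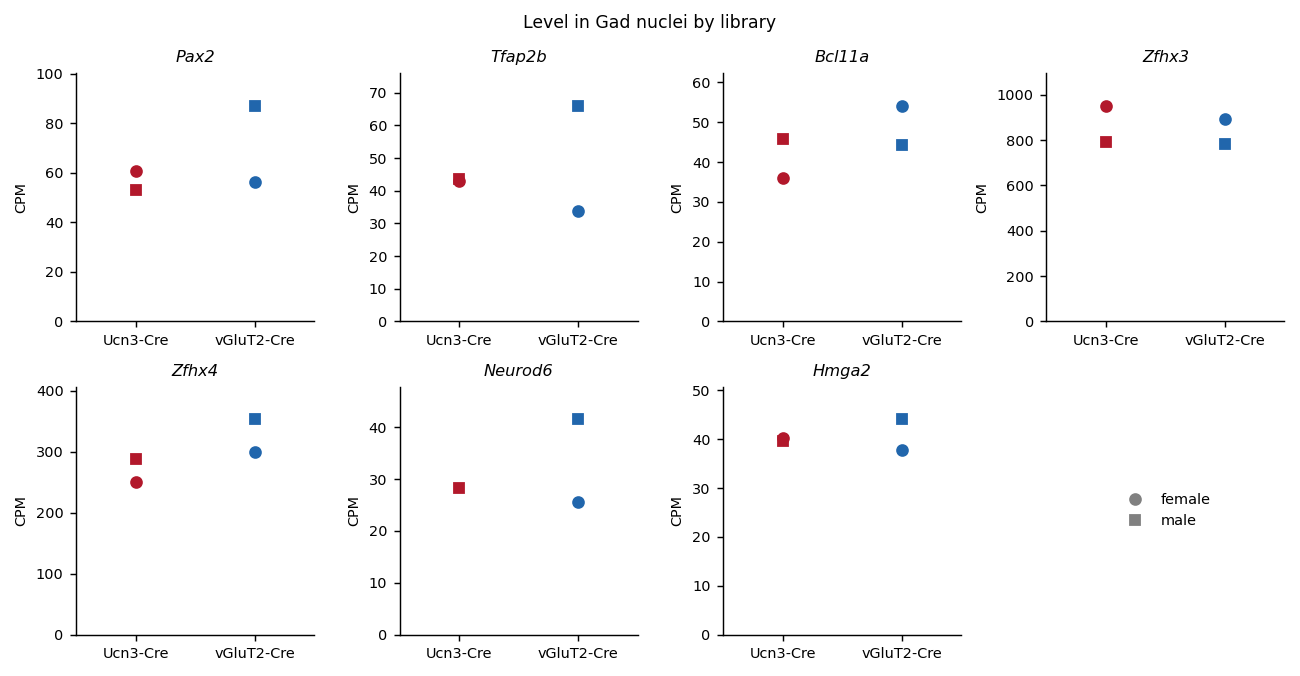
Level of each gene in Gad nuclei in CPM (vertical axes, 1 panel per gene), Ucn3-Cre libraries left of vGluT2-Cre libraries, circles for female and squares for male; Neurod6 is drawn without Ucn3-Cre replicate 1. The lines overlap for every gene except Zfhx4, at 251 and 289 CPM in Ucn3-Cre and 354 and 299 CPM in vGluT2-Cre.

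No member passed between lines. Zfhx4 was at 251 and 289 CPM in the Ucn3-Cre libraries and 354 and 299 CPM in the vGluT2-Cre libraries, which did not overlap (269.7 ± 26.8 and 326 ± 38.6 CPM, SD, n = 2 each; log2 fold change −0.28 with an SE of 0.16, adjusted p = 0.9998 in edgeR's quasi-likelihood test). Pax2 was at 61.0 and 53.2 CPM in the Ucn3-Cre libraries and 87.2 and 56.4 CPM in the vGluT2-Cre libraries, with vGluT2-Cre replicate 1 high and the lines overlapping (log2 fold change −0.36, SE 0.27). The log2 fold changes of Tfap2b, Bcl11a, Zfhx3 and Hmga2 were −0.22, −0.25, 0.05 and −0.05, with SEs of 0.36, 0.22, 0.16 and 0.20, and their lines overlapped. Neurod6, with the library in which it is listed at 0 left out, had −0.28 with an SE of 0.40.

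No member passed between the sexes either, and the adjusted p was 0.9997 for each. Zfhx3 was at 952 and 892 CPM in the female libraries and 793 and 785 CPM in the male libraries, which did not overlap (922 ± 42.3 and 789 ± 5.69 CPM, SD, n = 2 each; log2 fold change 0.24 with an SE of 0.12, edgeR's quasi-likelihood test). Tfap2b was at 43.0 and 33.9 CPM in the female libraries and 43.7 and 66.1 CPM in the male libraries, which also did not overlap, though by less than 1 CPM (log2 fold change −0.56, SE 0.28). For Pax2, Bcl11a, Zfhx4 and Hmga2 the sexes overlapped, with log2 fold changes of −0.28, 0.08, −0.21 and −0.11. Neurod6 without Ucn3-Cre replicate 1 had −0.47 with an SE of 0.34. Among the 3 libraries made on a sucrose cushion the log2 fold change of Zfhx3 between the sexes was 0.19, that of Tfap2b −0.71, and that of Zfhx4 between the lines −0.20. Of the 8 transmitter genes and the 52 listed transcription factors tested, none passed in either comparison, with medians of −0.01 and 0.11 between lines, against 0.005 over all genes, and of 0.03 and 0.09 between sexes, against −0.005 over all genes.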

How the data were processed

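Nuclei were profiled on the 10x Genomics platform. The submitters' processing notes name Cell Ranger 3.1.0, Seurat 3.2 and the build mm10. The deposited values are expected counts without scaling to depth: of the entries above 0, 97.2 to 98.8% per library are whole or less than 0.5 under a whole number. The step that made them is not given in the sources used here, and they were rounded to whole numbers.

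A minimum of 200 genes and a maximum of 5% mitochondrial counts removed no nucleus, and the 947 nuclei with the highest doublet scores (Scrublet in scanpy 1.11.5; 0.8% per 1000 nuclei of a library) were removed, because the automatic threshold marked only 42. The 20547 nuclei were clustered (2000 variable genes, 30 principal components, 15 neighbours, Leiden resolution 1), and the 1204 Gad nuclei again (1000 variable genes, 15 components, resolution 0.5), both without the members and listed genes. Counts were summed per library, class or split and tested with edgeR 4.0.16 (TMM, filterByExpr, the quasi-likelihood test and Benjamini-Hochberg over all genes tested, threshold 0.05), with DESeq2 1.42.0 as an alternative. The pair and count tests were tested on simulated data.

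The members and lists were chosen with earlier results of these data known. In each split the text names the 5 largest rises and 5 largest falls past the threshold with at least 20 CPM in the higher group and 1 direction in every library, and the listed transmitter genes and transcription factors; some are given by count alone, and a few are not reported here. Splits for members with under 20 nuclei in a library, the within-sub-cluster pairs and the choice to leave Ucn3-Cre replicate 1 out for Neurod6 were added after the data were seen. Replicate numbers were not taken to pair the libraries. The labels do not say that a number marks a shared batch, both replicate 2 libraries share a number in their column names whose meaning is not given in the sources used here, and deviations of same-numbered libraries correlated at −0.00538 over 9206 genes, 1 value for the 2 libraries of each line. Intervals are exact at 95%, and intervals and floors cover counting error only. A count of 0 is set to a floor of 3 counts over the group. The table of 480 nuclei repeats values of the library tables.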

Additional observations from a re-analysis of the deposited data

Results flagged for a closer look

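Of 42 groups of 4 libraries checked, 4 held a library far from the others by Dixon's criterion, where chance alone gives about 1 in 20. All 4 are single or paired counts of a gene in a class that otherwise had none. With the other libraries tied at 0, any count passes the criterion, so the rate of 1 in 20 does not apply to them. Pax2 in the inhibitory neuron-like nuclei of cluster 10 was at 0.732 CPM in vGluT2-Cre replicate 1, which is 1 count, and at 0 in the other libraries. Neurod6 in the same class was at 1.09 CPM in Ucn3-Cre replicate 2, again 1 count. The groups of Neurod6 took its listed 0 in Ucn3-Cre replicate 1 as a value, which the levels above leave out. In molecular layer interneuron-like nuclei, Bcl11a was at 7.37 CPM and Hmga2 was at 7.37 CPM in vGluT2-Cre replicate 1, 2 counts each, and both were at 0 in the other libraries.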

How the results depend on the processing

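Each split by a member gave fewer calls with DESeq2 than with edgeR: 204 against 443 for Pax2, 143 against 306 for Tfap2b, 151 against 309 for Bcl11a, 668 against 1410 for Zfhx3, 480 against 1042 for Zfhx4, 138 against 321 for Neurod6 and 231 against 427 for Hmga2. Without thinning the counts were 1439, 657, 1338, 2319, 2609, 1506 and 1672, and with thinning to 1000 UMIs, which leaves fewer counts, 107, 56, 109, 752, 463, 48 and 146. Sub-clusters 0 to 5 alone gave 292 for Pax2, and leaving out the library block 213 for Neurod6. Leaving out 1 library gave 284 to 357 for Pax2, 136 to 344 for Tfap2b, 214 to 261 for Bcl11a, 1058 to 1427 for Zfhx3, 783 to 1181 for Zfhx4, 52 to 229 for Neurod6 and 326 to 451 for Hmga2. The number of genes tested differed between settings, so these counts are not to be read as shares. For Pax2, 443 of 3946 genes were called, 1439 of 9111 without thinning and 107 of 1783 at 1000 UMIs. For Hmga2, 427 of 3391 were called, and 451 of 6289 without Ucn3-Cre replicate 1. Among recomputed values of genes named in the splits, 147 lost the call. The other 1619 kept direction and either kept the call or had no adjusted p. Genes that were not tested in a setting are in neither number.

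Leaving out 1 library left 3 to 6 shared and 8 to 11 excluding pairs, with 3 to 10 pairs that had too few expected nuclei. At 1000 UMIs 3 pairs were shared and 8 excluding, and 10 had too few expected nuclei. Within sub-clusters 2 were shared and 2 excluding. By the ratio pooled within sub-clusters, Pax2-Hmga2 (−0.0272), Tfap2b-Bcl11a (0.0325), Tfap2b-Zfhx4 (0.37) and Bcl11a-Zfhx4 (−0.38) had the other sign. Line calls were 10 with DESeq2 and 0 to 1 without a library. Sex calls were 26 with DESeq2, 6 in cluster 13 alone, 5 in cluster 10 alone, 6 with no filter, 2 with at least 3 Gad counts, 0 with at least 1, 0 with line as a term, 0 over genes counted in every library and 0 to 2 without a library. With the replicate number as a block, 0 genes were called by line and 0 by sex.

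No member was called by line or sex under any of these, and 13 log2 fold changes changed sign. By line, leaving out 1 library gave −0.61 to 0.34 for Tfap2b, −0.10 to 0.20 for Zfhx3 (−0.0483 without vGluT2-Cre replicate 1) and −0.15 to 0.0598 for Hmga2, the highest values of Tfap2b and Hmga2 without vGluT2-Cre replicate 1. Zfhx3 was at −0.0195 in cluster 13, Bcl11a at 0.0604 in cluster 10, and Hmga2 at 0.31 with at least 3 Gad counts and 0.0709 without Slc17a6 nuclei. By sex, the ranges were −0.58 to 0.15 for Pax2 and −0.29 to 0.28 for Bcl11a, Zfhx3 was at −0.0486 and Hmga2 at 0.20 in cluster 13, and Hmga2 at 0.0920 with at least 3 Gad counts. The cause was not tested. Depth limits the splits of Pax2, Tfap2b, Bcl11a, Neurod6 and Hmga2, which at 2000 UMIs were found in 57 to 116 Gad nuclei.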

Other observations

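Relatives of the members were read in the same classes. Tfap2a, the closest relative of Tfap2b here, was at 116 ± 30.4 CPM in molecular layer interneuron-like nuclei, 92.4 ± 19.3 CPM in cluster 13 and 4.59 ± 2.35 CPM in cluster 10 (SD, n = 4 libraries), the order of Tfap2b. Bcl11b, the paralogue of Bcl11a, was highest in oligodendrocyte precursor-like nuclei, at 66.1 ± 17.0 CPM, and was at 3.57 ± 2.07 CPM in cluster 10, where Bcl11a was highest. Pax6, a paired-box relative of Pax2, was highest in astrocyte-like nuclei, at 113 ± 22.1 CPM, and Zfhx2 was at 62.1 ± 10.2 CPM in oligodendrocyte-like nuclei and 59.2 ± 19.6 CPM in molecular layer interneuron-like nuclei. Neurod2, a relative of Neurod6, was at 76.8 ± 46.0 CPM in molecular layer interneuron-like nuclei and 49.7 ± 22.4 CPM in cluster 13. These levels are a description without a test.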
